A study of Mus musculus with 6 samples.

Results

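The genes of the cytosolic ribosomal proteins were taken from the table by symbol: Rpl or Rps followed by a number and an optional a, x or l, together with the stalk genes Rplp0, Rplp1 and Rplp2 and the gene Rpsa. The rule found 81 of the 24340 rows, 46 for the large subunit, 32 for the small subunit and 3 for the stalk, and used no measured value. All 81 were found in the GENCODE annotation of GRCm38, on 19 chromosomes. Of these, 79 averaged 1 FPKM or more over the 6 libraries and were tested. FPKM counts fragments relative to the length of the transcript and to the size of the library.

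Cytosolic ribosomes translate the mRNAs of the nuclear genome, and their proteins are made in amounts close to equal because each ribosome holds 1 copy of nearly all of them. Most ribosomal protein mRNAs begin with a run of pyrimidines, the terminal oligopyrimidine (TOP) motif, through which the kinase mTOR and the RNA-binding protein LARP1 control their translation. The mRNAs are short, stable and very abundant in most cells, macrophages included.

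Polyadenylated RNA was measured in primary microglia, which are macrophages of the brain, cultured from C57BL/6 mice under 3 days of age. The vehicle group received DMSO for 1 h and then lipopolysaccharide (LPS, a bacterial membrane component) at 1 ug/ml for 5 h. The C13 group received 10 uM C13, called an inhibitor of the kinase MOK by the submitters, for 1 h in place of DMSO and then the same LPS. Each group had 3 libraries, all 6 had received LPS, and no group without LPS was analysed here. The labels number the samples as biological replicates and name neither a culture nor a litter, so p-values measure only the spread between these samples, which may be technical.

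The depth, estimated from the steps between low values, was 8930000 to 11570000 fragments per library. Mok, the gene of the labelled target, was at 0.375 ± 0.114 FPKM after vehicle and 0.373 ± 0.139 FPKM after C13 (SD, n = 3), below the limit for testing. All 10 microglial markers averaged 1 FPKM or more, and so did 7 of 7 fibroblast and mural markers, of which Col1a1 had a mean of 1920 FPKM. Vehicle replicate 2 stood apart from the other libraries, with FPKM values that summed to 634451 against 504674 to 534757. Vehicle replicate 2 was known beforehand to over-represent short transcripts, and each comparison was therefore planned with and without it. Its microglial markers summed to 2415 FPKM, against 1766 FPKM in the lowest vehicle library and 1688 to 1800 FPKM with C13. Its fibroblast and mural markers summed to 5991 FPKM, against 5294 FPKM in the lowest vehicle library and 5028 to 5428 FPKM with C13. Their part in the results below was not tested. In bulk RNA, fewer cells of a type and less RNA per cell cannot be told apart.

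The start regions were searched for pyrimidine runs, a wider criterion than the TOP motif, which begins the mRNA. RefSeq start regions on GRCm38.p6 were at hand for 60 of the 81 genes, and each was searched on the gene's own strand for at least 8 consecutive letters that were each C or T, with any part of the run between 25 bases before and 25 bases after the annotated start. Such a run stood in 36 of the 60 genes (60%), against 27% of the 8682 tested genes in the same table and 27.1% of all 27025 genes in it. The following 50-base windows hold 25 bases before the start and 25 bases from it on, 5′ to 3′ on the gene's strand, with the run in capitals. The first 4 carry a run and come from the stalk (Rplp2), the large subunit (Rpl28) and the small subunit (Rps6, the substrate of S6 kinase, and Rps10). The last 3 carry none. Rplp0 and Rpl41 are shown as abundant members, with means of 1160 and 2483 FPKM, and Rpl10l because it is at the floor.
Rplp2 (chr7:141447626-141447675, plus strand): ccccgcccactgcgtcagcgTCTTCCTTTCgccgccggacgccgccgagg
Rpl28 (chr7:4792940-4792989, plus strand): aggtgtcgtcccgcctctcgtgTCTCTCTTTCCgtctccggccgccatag
Rps6 (chr4:86857343-86857392, minus strand): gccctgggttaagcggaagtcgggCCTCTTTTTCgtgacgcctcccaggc
Rps10 (chr17:27635220-27635269, minus strand): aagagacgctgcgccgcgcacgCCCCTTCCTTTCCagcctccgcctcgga
Rplp0 (chr5:115559442-115559491, plus strand): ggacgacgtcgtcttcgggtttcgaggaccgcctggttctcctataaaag
Rpl41 (chr10:128549144-128549193, minus strand): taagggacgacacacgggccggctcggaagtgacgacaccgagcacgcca
Rpl10l (chr12:66284377-66284426, minus strand): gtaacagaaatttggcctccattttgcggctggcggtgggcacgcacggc
In Rplp2, Rpl28, Rps6 and Rps10, the run lies across the annotated start, whereas the Rplp0, Rpl41 and Rpl10l windows hold no run of that length. In other genes counted the run lies wholly before the start, as in Rpl4, or wholly after it, as in Rps12. The 60% is therefore not the share of genes with a TOP motif. A window without a run says only that these letters are not near the start that RefSeq lists. A match is a description of the letters and not a measured site.

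Ribosomal protein genes stood among the most abundant rows of the table. In FPKM, which is per length, the median of their means was 848 against 10.3 over all genes tested, and they made up 36 of the 100 rows with the highest means. Of the 79 rows with a mean above 1000 FPKM, 28 were ribosomal protein genes. A further 35 lay between 500 and 1000 FPKM, 10 between 100 and 500, 6 between 1 and 100 and 2 below 1. These counts and the family sums below use the members' own rows. For Rpl26, Rpl30, Rpl34 and Rps27 they leave out a more abundant row at the same locus. With that row added, the means were 1226, 863, 1063 and 1410 FPKM. The order of the genes was nearly the same in each library, with a Spearman rho of 0.989 to 0.995 between vehicle replicate 1 and each other library over the 79 genes. This is a correlation across genes, which are not independent replicates.

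Together the 81 genes summed to 62063, 98498 and 64336 FPKM in vehicle replicates 1, 2 and 3. With C13 the sums were 65424, 63389 and 61728 FPKM in replicates 1, 2 and 3. As a share of all FPKM in the library these sums were 11.7, 15.5 and 12% with vehicle and 12.5, 12.4 and 12.2% with C13. Vehicle replicate 2 was the highest library on both scales, so that the groups overlapped. Without it the sums still overlapped, while the shares of the 3 C13 libraries lay above those of vehicle replicates 1 and 3.

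**Figure D1:**
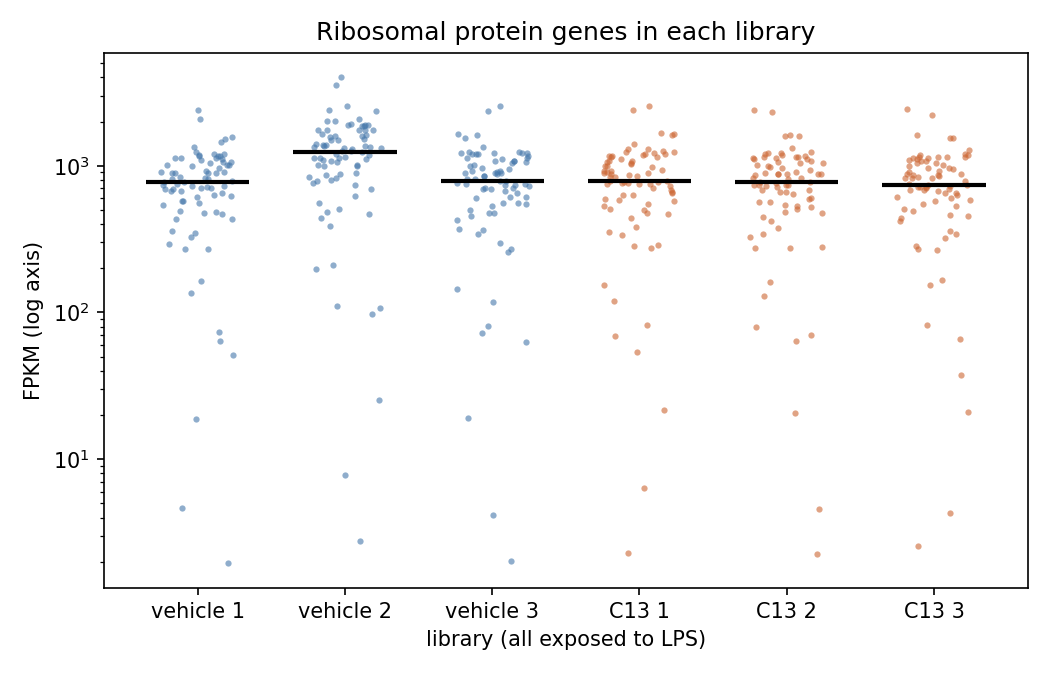
FPKM (log axis) of the 79 tested ribosomal protein genes in each of the 6 libraries, 1 point per gene with the sideways position drawn only for legibility, and their median as a bar. The bar stands at 1239 FPKM in vehicle replicate 2 and between 736 and 790 FPKM in the other 5 libraries.

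The ribosomal stalk recruits the elongation factors to the ribosome, with Rplp0 as its base and Rplp1 and Rplp2 as its arms. Rplp0 (chromosome 5, 115559467 to 115563727, plus strand, GRCm38 as for all gene positions below) was at 1061, 1586 and 1080 FPKM in vehicle replicates 1, 2 and 3, and at 1076, 1081 and 1074 FPKM in C13 replicates 1, 2 and 3. Apart from vehicle replicate 2, no library of Rplp0 lay outside 1061 to 1081 FPKM, a coefficient of variation (SD over mean) of 0.716% over the 5 libraries. Rplp1 (chromosome 9, 61913284 to 61914542, minus strand) had the highest mean of all members, with 2397, 4006 and 2548 FPKM with vehicle, against 2559, 2414 and 2446 FPKM with C13. Rplp2 (chromosome 7, 141447370 to 141451585, plus strand), whose start carries the pyrimidine run printed above, was at 1157, 2011 and 1230 FPKM after vehicle and 1295, 1235 and 1145 FPKM after C13. In all 3 stalk genes vehicle replicate 2 was the highest library and the groups overlapped.

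Next to Rplp1 the most abundant members were Rpl41, the smallest protein of the large subunit, and the small-subunit genes Rps29 and Rps2. Rpl41 (chromosome 10, 128548114 to 128549305, minus strand) was at 2076, 3535 and 2366 FPKM with vehicle, against 2398, 2325 and 2201 FPKM with C13. Rps29 (chromosome 12, 69157722 to 69159186, minus strand) was at 1561, 2561 and 1553 FPKM after vehicle and at 1641, 1598 and 1619 FPKM after C13. The 3 C13 libraries of Rps29 lay above vehicle replicates 1 and 3 and below vehicle replicate 2, while those of Rpl41 lay among them. Rps2 (chromosome 17, 24718116 to 24721929, plus strand) was at 1528, 2351 and 1638 FPKM with vehicle, against 1616, 1620 and 1553 FPKM with C13, with overlap. Rpsa (chromosome 9, 120127689 to 120132369, plus strand), a small-subunit protein also known as the laminin receptor, was at 656, 1061 and 668 FPKM after vehicle and at 661, 662 and 653 FPKM after C13. After Rplp0, Rpsa varied least over the 5 libraries other than vehicle replicate 2, by 0.834%.

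Several members have a paralog under the same rule, and the pairs differed widely in level. Rpl10l, an autosomal copy of X-linked Rpl10 known from the male germ line, was at the table's floor of 0.01 FPKM in each of the 6 libraries, while Rpl10 (chromosome X, 74270812 to 74273135, plus strand) was at 1174, 1763 and 1197 FPKM with vehicle, against 1196, 1152 and 1150 FPKM with C13. Rpl3l, the heart and skeletal muscle form of Rpl3, was at the floor in 5 libraries and at 0.132 FPKM in C13 replicate 2. Rpl3 (chromosome 15, 80077791 to 80091868, minus strand), which lies next to the peptidyl transferase centre, was at 610, 884 and 614 FPKM after vehicle and 627, 595 and 602 FPKM after C13. These 2 paralogs at or near the floor are the members that could not be tested.

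Rpl39l, a testis-enriched copy of X-linked Rpl39, was measured near the limit for testing, at 1.95, 2.77 and 2.02 FPKM with vehicle, against 2.31, 2.24 and 2.56 FPKM with C13. Its lowest library rests on an estimated 10 fragments. Rpl39 (chromosome X, 37082520 to 37085402, minus strand) itself was at 922, 1516 and 960 FPKM after vehicle and 1027, 982 and 906 FPKM after C13, with overlap. Rps27l, a paralog of Rps27 known as a p53 target, was at 271, 391 and 258 FPKM with vehicle, against 285, 279 and 270 FPKM with C13. Rps4l, annotated as a transcribed processed pseudogene, was at 18.9, 25.3 and 19.0 FPKM after vehicle and 21.6, 20.8 and 21 FPKM after C13. Its X-linked partner Rps4x was at 1008, 1493 and 997 FPKM with vehicle, against 996, 997 and 949 FPKM with C13. In Rpl39l and Rps4l the C13 libraries lay between vehicle replicates 1 and 3 on one side and vehicle replicate 2 on the other, whereas the C13 libraries of Rps4x overlapped vehicle replicates 1 and 3.

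Vehicle replicate 2 was the highest of the 6 libraries in 79 of the 79 tested members, as it was in 38.5% of all genes tested. Relative to the mean of vehicle replicates 1 and 3 its FPKM had a median ratio of 1.55 over the members, with quartiles of 1.49 and 1.61, against 1.02 over all genes tested. The range ran from 1.32 in Rpl4, a large-subunit protein that lines the exit tunnel, to 1.78 in Rps27. It lay above the next highest library by 7.97% in Rpl39l at the least and by 64.3% in Rps19 at the most, with a median of 48.5%. Rps19 (chromosome 7, 24884371 to 24889806, plus strand), a small-subunit gene mutated in Diamond-Blackfan anaemia in humans, was at 732, 1298 and 790 FPKM after vehicle and 756, 762 and 749 FPKM after C13. These ratios describe 1 library and have no replicate check.

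**Figure D2:**
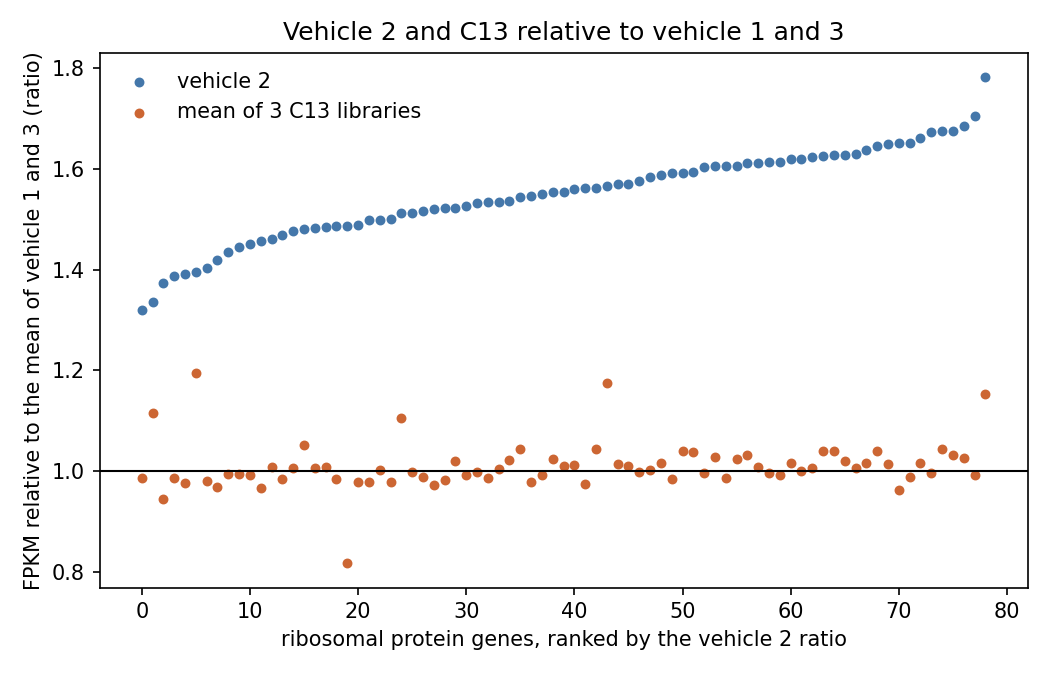
FPKM of vehicle replicate 2, and mean FPKM of the 3 C13 libraries, each divided by the mean of vehicle replicates 1 and 3, for the 79 tested ribosomal protein genes ranked by the first ratio. The vehicle 2 ratio runs from 1.32 to 1.78 without reaching 1, while the C13 ratio lies about 1.00 with quartiles of 0.987 and 1.02.

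The ratio of vehicle replicate 2 followed transcript length over the whole table, with a Spearman rho of -0.587 over 11328 tested genes with an annotated length. Ribosomal protein transcripts are short, with a median of 710 nt (345 to 5130 nt) against 2464 nt over all genes tested, and 63 of the 79 are under 1000 nt. Length here is that of the basic-set transcript of median length, which need not be the one the cells express. Among transcripts up to 500 nt the median ratio was 1.61 for 15 members and 1.41 for 232 other genes. Over 500 and up to 1000 nt it was 1.54 for 48 members and 1.33 for 1205 others, and over 1000 and up to 2000 nt it was 1.5 for 12 members and 1.20 for 2895 others. Over 2000 and up to 4000 nt, 3 members had a median ratio of 1.51 and 4468 others 0.980. The 3 members were Rps20, annotated at 3706 nt, and Rpl22 and Rpl5, at 2048 and 2045 nt near the lower edge. Rps15a, the only member annotated as over 4000 nt (5130 nt), had a ratio of 1.67 against a median of 0.730 for the 2449 other genes. The transcripts expressed from Rps15a and Rps20 are likely shorter than annotated. The median of the members lay above that of the other genes in each of these length classes. Over 2000 nt these few genes give little ground for the comparison. Within the family the ratio had a Spearman rho of -0.252 with length and of 0.236 with GC content over 79 genes. The part of length, GC content and RNA quality in this difference was not tested.

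**Figure D3:**
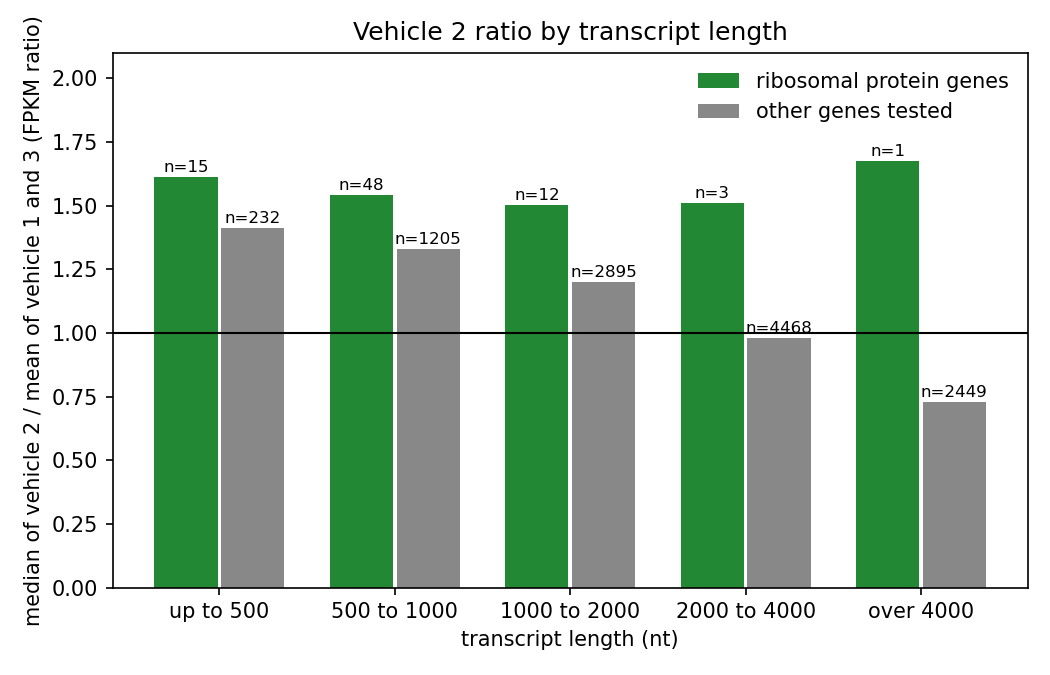
Median FPKM of vehicle replicate 2 over the mean of vehicle replicates 1 and 3, by annotated transcript length, for ribosomal protein genes and all other tested genes, with the number of genes above each bar. The bars of the other genes go down from 1.41 to 0.730 with length, while those of the ribosomal protein genes stay between 1.5 and 1.67. The classes over 2000 nt hold only 3 ribosomal protein genes and 1, and the annotated lengths of Rps20 and Rps15a are likely too long.

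Genes with and without a pyrimidine run near the RefSeq start had similar ratios, with medians of 1.56 in 36 tested members with a run and 1.54 in 22 without. Runs wholly before or after the start were counted too, so this split does not separate TOP from other mRNAs. Of genes outside the symbol rule, the ratio was 1.57 in Fau, which encodes Rps30 as a fusion to a ubiquitin-like protein, 1.47 in the small-subunit gene Rps3a1, and 1.52 and 1.45 in the paralogs Rpl36al and Rpl22l1. It was 1.16 in Rpl7l1, a paralog of Rpl7, below the lowest member. The elongation factor genes Eef1a1 and Eef2, whose mRNAs also carry a TOP motif, had ratios of 1.20 and 1.10. The 25 tested translation factor and other TOP genes had a median ratio of 1.35, with vehicle replicate 2 highest in 21 of them. Mitochondrial ribosomal protein genes had a median ratio of 1.43 over 77 genes, with vehicle replicate 2 highest in 70 of them. Subunits of oxidative phosphorylation had 1.45 over 80 genes, with vehicle replicate 2 highest in 74. The 20 tested genes of mTOR and LARP1 control of translation had a median ratio of 0.857 and a median length of 3135 nt.

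C13 was compared with vehicle to ask whether the compound altered the ribosomal protein mRNAs of LPS-exposed microglia. With all 6 libraries none of the 79 members passed the limma test on log2(FPKM + 1) at an adjusted p under 0.05, and neither did any other of the 11412 genes tested (0%). The lowest adjusted p among the members was 0.80 (limma). At an unadjusted p under 0.05 limma called 0 members and 837 of all genes, which is 7.33%. The differences were below 0 in 76 members and above 0 in 3, with a median of -0.20 in log2(FPKM + 1) against 0.00 for all genes. Their standard errors had a median of 0.18, so the typical difference was close to its own error. The C13 libraries lay below all 3 vehicle libraries in Rpl37 and Rpl6, and above them in no member, where 9.78% of all genes lay below and 6.83% above.

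Without vehicle replicate 2 the difference was close to 0. Of the 79 members 43 lay above 0 and 36 below, with a median of 0.01 in log2(FPKM + 1), quartiles of -0.02 and 0.03, and a median of 0.00 for all genes. None passed the limma test, where 47 of all genes did on the higher side (0.412%) and 122 on the lower side (1.07%). The standard errors had a median of 0.05, and in 73 of the 79 members the 95% interval of the difference lay within ±0.25 in log2(FPKM + 1), a 1.19-fold difference. The 6 members whose interval reached past ±0.25 were Rpl26, Rpl30, Rpl34, Rpl39l, Rps27 and Rps4l, which are also the 6 tested members with an estimated 1000 fragments or fewer in their lowest library. In FPKM, C13 over the mean of vehicle replicates 1 and 3 had a median ratio of 1.00 over the members, with a range from 0.817 in Rpl30 to 1.19 in Rpl39l. The sign of the median turned with the scaling, at -0.03 after a length and GC trend was removed and 0.06 after rescaling to TPM, which gives every library the same total, where the median of all genes was 0.04 and 76 members lay above 0. After TPM without vehicle replicate 2, 9 members had an unadjusted p under 0.05 (limma), which is 9 of 79 where 17.6% of all genes had one.

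**Figure D4:**
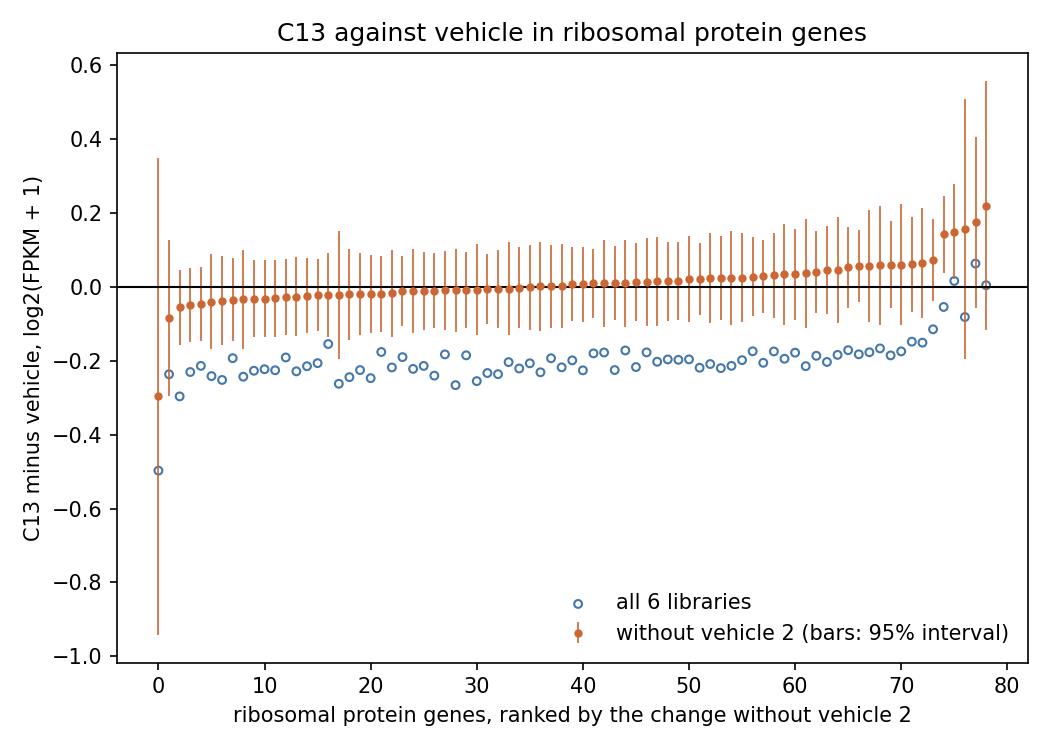
C13 minus vehicle in log2(FPKM + 1) for each of the 79 tested ribosomal protein genes, ranked by the difference without vehicle replicate 2 (filled points with 95% intervals from limma), beside the difference with all 6 libraries (open points). The open points have a median of -0.20 and the filled points of 0.01, and 73 of the 79 intervals lie within ±0.25.

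The subunits had similar medians. With all 6 libraries the median difference was -0.20 over 44 tested large-subunit genes, -0.21 over 32 small-subunit genes and -0.21 over the 3 stalk genes. Without vehicle replicate 2 it was 0.00 in large-subunit genes, with 22 above and 22 below 0, and 0.00 in small-subunit genes, with 18 above and 14 below. The 3 stalk genes had a median of 0.01. When each library was scaled to the mean of the members, so that each gene was compared with its own family, limma called 0 members with all 6 libraries (lowest adjusted p = 0.764), and 0 of all genes (0%). The same scaling without vehicle replicate 2 was chosen after seeing the data. There limma called 0 members (lowest adjusted p = 0.271), and 63 of all genes higher (0.552%) and 300 lower (2.63%).

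Of single members, Rpl22 and Rps4l had an unadjusted p under 0.05 without vehicle replicate 2, both on the higher side, where 16.9% of all genes had one in either direction. Rpl22 (chromosome 4, 152325742 to 152334071, plus strand) encodes an RNA-binding large-subunit protein that is dispensable for translation as such. It was at 73.9, 111 and 72.9 FPKM with vehicle, against 81.9, 79.7 and 81.7 FPKM with C13, so that the C13 libraries lay above vehicle replicates 1 and 3 and below vehicle replicate 2. Its difference without vehicle replicate 2 was 0.14 ± 0.04 (SE, 95% interval 0.04 to 0.25, limma adjusted p = 0.171), and with all 6 libraries it was -0.05 (limma adjusted p = 0.929). Its paralog Rpl22l1 was at 155, 213 and 139 FPKM after vehicle and 142, 154 and 130 FPKM after C13, with overlap. Rps4l, whose values stand above, differed by 0.15 ± 0.05 without vehicle replicate 2 (limma adjusted p = 0.234), and by 0.02 with all 6 libraries.

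Without vehicle replicate 2 the C13 libraries lay above both remaining vehicle libraries in Rpl17, Rpl22, Rpl39l, Rps29 and Rps4l, where 15.3% of all genes did so, and below both in Rpl37 and Rpl6, where 20.5% did so. The shares of the members, 5 and 2 of 79, were below those of all genes. Rpl37 (chromosome 15, 5116645 to 5119140, plus strand), a zinc-binding protein of the large subunit, was at 290.6, 485.1 and 296.7 FPKM with vehicle, against 287.8, 275.5 and 284.2 FPKM with C13. Rpl6 (chromosome 5, 121204481 to 121209241, plus strand), of the large subunit, was at 690, 1004 and 689 FPKM after vehicle and 684, 664 and 650 FPKM after C13. In both genes the groups did not overlap, while the differences without vehicle replicate 2 were -0.06 ± 0.04 for Rpl37 and -0.05 ± 0.04 for Rpl6 (SE), with limma adjusted p of 0.566 and 0.611.

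Rpl5, which carries 5S rRNA into the large subunit and binds Mdm2, was at 350, 506 and 363 FPKM with vehicle, against 352, 343 and 340 FPKM with C13. Among the lowest differences with all 6 libraries, Rpl36 was at 782, 1316 and 812 FPKM after vehicle and at 838, 811 and 711 FPKM after C13. Rps20, of the small-subunit head, was at 1237, 2078 and 1246 FPKM with vehicle, against 1301, 1227 and 1180 FPKM with C13. The groups overlapped in all 3 of these genes, and their differences without vehicle replicate 2 were -0.05, -0.02 and -0.01.

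Apart from vehicle replicate 2, ribosomal protein mRNAs varied little between libraries. Over the 5 libraries the coefficient of variation of FPKM had a median of 2.97% among the members against 8.21% over all genes tested, and it was under 5% in 65 members (82.3%) against 21.7% of all genes. Highly expressed genes have less counting error, and the lowest library of a typical member rests on an estimated 5007 fragments. C13 replicate 1 was the highest of the 5 in 50 members (63.3%), against 17.7% of all genes, and the lowest in none. C13 replicate 3 was the lowest in 38 members and vehicle replicate 1 in 26, so the libraries most often at the top and at the bottom were both C13 libraries.

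The members that varied by more than 10% were Rpl39l, Rpl26, Rps27 and Rpl30, at 11, 16.3, 18.5 and 29.0%. Of these, Rpl26, Rps27 and Rpl30, and also Rpl34 at 8.53%, share their locus in the table with a more abundant row. In all, 34 members shared their locus with another row, and in 30 of them the member's own row was the most abundant. Cufflinks divides fragments among overlapping models, so for such loci the split between rows is uncertain.

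Rpl26 (chromosome 11, 68901583 to 68906989, plus strand), a large-subunit protein that also binds p53 mRNA, was at 135, 198 and 117 FPKM after vehicle and 119, 161 and 165 FPKM after C13. Added to the row Gm15772 at the same locus, it came to 1073, 1833 and 1122 FPKM with vehicle, against 1136, 1126 and 1065 FPKM with C13. The sum varied by 2.98% over the 5 libraries other than vehicle replicate 2, and its C13 ratio to vehicle replicates 1 and 3 was 1.01, where Rpl26 alone had 1.18.

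Rpl30 (chromosome 15, 34440505 to 34443640, minus strand), of the large subunit, was at 51.1, 97.9 and 80.6 FPKM after vehicle and 54.0, 70.2 and 37.2 FPKM after C13. It had the lowest difference of all members in both fits, -0.50 ± 0.29 with all 6 libraries and -0.30 ± 0.27 without vehicle replicate 2 (SE), with limma adjusted p of 0.80 and 0.640. With the row Gm12191 added, it came to 823, 1228 and 785 FPKM with vehicle, against 798, 775 and 768 FPKM with C13. The sum varied by 2.74%, and its C13 ratio was 0.971, where Rpl30 alone had 0.817.

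Rpl34 (chromosome 3, 130726831 to 130730398, minus strand), of the large subunit, was at 164, 212 and 145 FPKM after vehicle and 153, 130 and 154 FPKM after C13. With the row Rpl34-ps1 it came to 975, 1463 and 1016 FPKM with vehicle, against 1002, 963 and 962 FPKM with C13, and the variation went from 8.53 to 2.46%. Rps27 (chromosome 3, 90212522 to 90213651, minus strand), a zinc-binding protein of the small subunit, was at 4.64, 7.85 and 4.17 FPKM after vehicle and 6.37, 4.59 and 4.29 FPKM after C13. With the row Rps27rt it came to 1289, 2053 and 1266 FPKM with vehicle, against 1355, 1261 and 1236 FPKM with C13, and the variation went from 18.5 to 3.55%. The sums of all 4 loci lay in the range of the other abundant members, with overlapping groups and with vehicle replicate 2 highest.

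The names of the 4 added rows belong to other positions in the annotation. GENCODE places Gm15772, Gm12191 and Rpl34-ps1, all processed pseudogenes, on chromosomes 5, 11 and 6, and Rps27rt, a protein-coding copy, on chromosome 9. The table lists them on chromosomes 11, 15, 3 and 3, at the loci of Rpl26, Rpl30, Rpl34 and Rps27. The values of these 4 members taken alone therefore do not give the level of the gene.

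**Figure D5:**
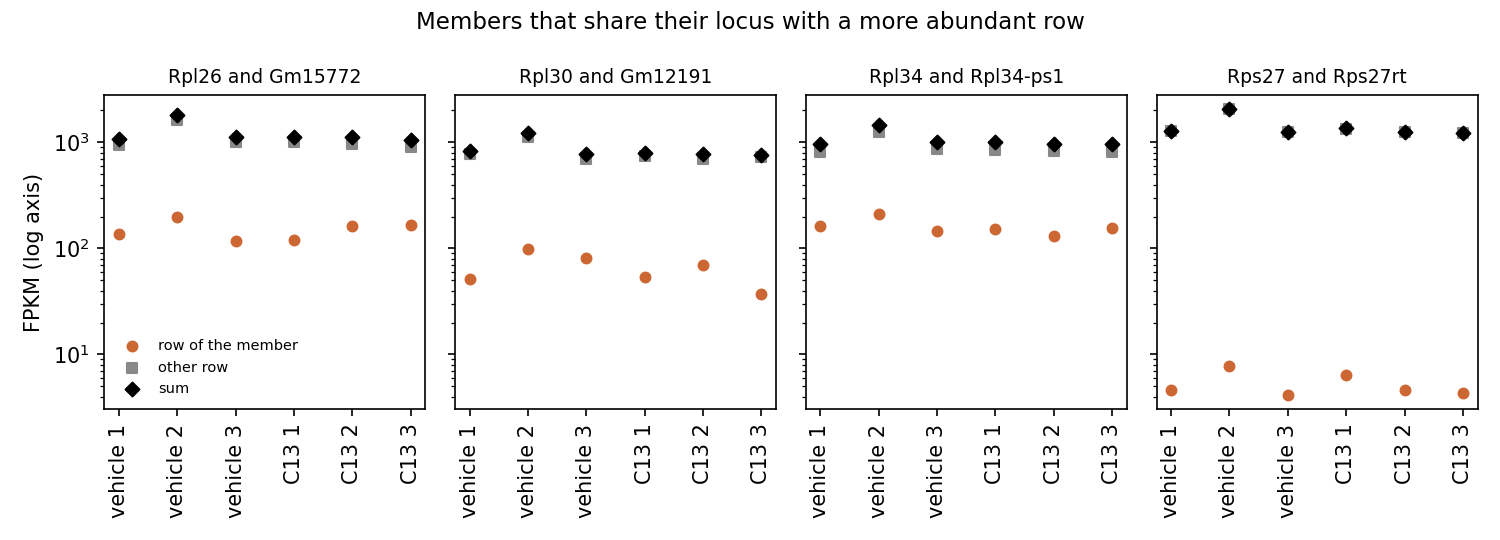
FPKM (log axis) in each of the 6 libraries for the 4 ribosomal protein genes whose locus in the table holds a more abundant row, with the member's row, the other row and their sum. The member's row scatters between libraries, for Rpl30 from 37.2 to 97.9 FPKM, while the sums differ little among the 5 libraries other than vehicle replicate 2.

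Gene groups that work with the ribosome were read in the same fits, and limma called none of their genes with all 6 libraries or without vehicle replicate 2. A fit chosen after seeing the data scaled libraries to the mean of the cytosolic members and left out vehicle replicate 2. There limma called Mrpl14 and Cox7a1 higher with C13 (adjusted p = 0.0419 and 0.0491) and Vim lower (adjusted p = 0.0103), and no other gene of these groups. Over all genes the same fit called 63 higher (0.552%) and 300 lower (2.63%). Unscaled and without vehicle replicate 2, the 77 mitochondrial ribosomal protein genes had a median difference of 0.06 in log2(FPKM + 1). Of these, 52 lay above 0 and 25 below. The 80 oxidative phosphorylation subunits had a median of 0.04, with 55 above and 25 below, where 5557 of all genes lay above and 5855 below. With all 6 libraries the 2 medians were -0.11 and -0.13. The median lengths of the 2 groups were 1134 and 659 nt, against 2464 nt over all genes tested. Without vehicle replicate 2, the median difference of all genes went from 0.036 up to 500 nt to -0.029 over 4000 nt. The part of length in the medians of these groups was not tested. Mrpl14, a large-subunit protein of the mitochondrial ribosome, was at 22.8, 41.3 and 27.7 FPKM after vehicle and 33.7, 36.8 and 32.0 FPKM after C13, and differed by 0.43 without vehicle replicate 2 (limma adjusted p = 0.0897). The small-subunit gene Mrps35 differed by 0.32 (limma adjusted p = 0.112). Cox7a1 and Cox7a2l, of cytochrome c oxidase, differed by 1.18 and 0.20 (limma adjusted p = 0.103 and 0.112), Cox7a1 at only 0.519 to 4.69 FPKM.

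The 53 tested genes of ribosome biogenesis had a median of -0.01 without vehicle replicate 2, with 25 above and 28 below 0. Its lowest p values belonged to Wdr43, of the small-subunit processome, at -0.21, and Nob1, the nuclease that matures 18S rRNA, at -0.14 (limma adjusted p = 0.141 and 0.386). The 25 translation factor and other TOP genes had a median of -0.01, with 10 above and 15 below. Among them Vim, the intermediate filament gene, was at 1138, 1468 and 1173 FPKM with vehicle, against 1014, 989 and 932 FPKM with C13, groups that did not overlap, and differed by -0.24 (limma adjusted p = 0.0798). Npm1, a nucleolar chaperone, differed by -0.09 (limma adjusted p = 0.405). Vim is also expressed by fibroblasts, whose summed markers lay at 5028 to 5428 FPKM with C13 and 5294 to 5991 FPKM with vehicle. Astrocyte markers summed to 62.1 to 109 FPKM with C13 and 45.5 to 56.2 FPKM with vehicle, without overlap. These sums rest largely on 1 of the 7 markers, Gja1, which had a mean of 44.9 FPKM over the 6 libraries. The part of these cell types in the values above was not tested.

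The 20 genes of mTOR and LARP1 control of translation had a median of -0.03, with 9 above and 11 below 0. Larp1, which binds TOP mRNAs, was at 52.4, 39.7 and 51.1 FPKM after vehicle and 48.8, 44.5 and 48.3 FPKM after C13, and Eif4e, the cap-binding factor, at 42.4, 34.7 and 38.6 FPKM with vehicle, against 38.2, 35.4 and 36.1 FPKM with C13. Vehicle replicate 2 was the lowest library in both, the reverse of the ribosomal protein genes. It was the lowest in 11 of the 20 genes and the highest in 6. Larp1 is annotated at 6614 nt, where the vehicle replicate 2 ratio was low over the whole table, and Eif4e at 729 nt, where it was high. Neither length need be that of the transcript the cells express. The part of length was not tested. The differences of Larp1 and Eif4e without vehicle replicate 2 were -0.13 and -0.14 (limma adjusted p = 0.309 and 0.321).

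The 5 tested pseudogene rows of ribosomal proteins had a median of -0.02 without vehicle replicate 2, with Rpl14-ps1 at -0.31 and Rpl31-ps12 at 0.36 (limma adjusted p = 0.184 and 0.354). The 5 rows include Rpl34-ps1, which shares the Rpl34 locus and was added to Rpl34 above. Pseudogene rows share reads with their parent genes, and their split is uncertain. The 10 tested snoRNA host genes, several of which also carry a TOP motif, had a median of 0.12, with 8 above and 2 below 0. Their median length was 498.5 nt, and its part in this value was not tested. Snhg5 and Snhg1 differed by 0.41 and 0.18 (limma adjusted p = 0.179 and 0.206).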

How the data were processed

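Poly-A RNA of 3 vehicle and 3 C13 samples, all with LPS, was sequenced. The submitters' processing notes name TopHat2 2.1.0, Cufflinks and the build mm10. For the annotation and the strand setting, the sources used here give no value. The authors deposited 1 table of FPKM values per gene and library, with a floor of 0.01 FPKM. FPKM divides by library total and assumed length, so values are relative within a library and depend on the transcript model. Read totals are not in the table, and depth was estimated from the value of 1 fragment in low genes of at least 1500 nt.

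Columns were matched to samples by the labels' descriptions and groups by their titles. Values were taken as log2(FPKM + 1), a scale that understates changes of low genes. The 11412 genes that averaged 1 FPKM or more were fitted with limma 3.58.1 in R 4.3.3 (intensity trend, two-sided, Benjamini-Hochberg adjustment over all of them, threshold 0.05), once with 6 and once with 5 libraries. The fit with 6 libraries was tested on simulated data, with independent noise of the same spread in every library for each gene. No simulated library was shifted, so the case of vehicle replicate 2 was not covered. Positions, lengths and GC content came from GENCODE mouse release M21 on GRCm38, the assembly UCSC names mm10, which matched 99.26% of the genes tested, and start regions from RefSeq on GRCm38.p6.

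The members and the related lists were chosen with earlier results of these data known. Values per library are given for the 4 highest and 4 lowest measured members, the 5 largest differences each way in either fit, the stalk genes, Rpsa and the paralogs ending in l with their partners, and 2 genes per related list by p. Genes with start sequences, overlapping rows, non-overlapping groups or outside the symbol rule are named besides. Alternatives were other pseudocounts, filters, scalings and limma options, a length and GC trend, a replicate block, and each library left out. Precision is limited by 3 libraries per group.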

Additional observations from a re-analysis of the deposited data

How the results depend on the processing

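No cytosolic ribosomal protein gene was called in any alternative run. Over all genes, limma called 0 higher and 0 lower with all 6 libraries. The calls were 11 higher and 1 lower with no filter, 7 higher after quantile normalization, 2 higher after rescaling to TPM, 5 higher and 11 lower after a length and GC trend was removed, 1 higher with no intensity trend, and 18 higher and 24 lower with array weights. Leaving out 1 library gave 0 to 47 higher and 0 to 122 lower, the highest without vehicle replicate 2. Alternatives chosen after seeing the data, each without vehicle replicate 2, gave 63 higher and 300 lower with the members' mean subtracted, 43 and 116 with the trend removed, and 58 and 101 after TPM. The causes were not tested.

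The median difference of the members, -0.20, went to -0.004 after quantile normalization, -0.07 after TPM, -0.14 after the length and GC trend and -0.03 with array weights. TPM and the members' mean shifted the median of all genes to 0.13 and 0.20, so that the members stood below it in both. Leaving out 1 library gave -0.32 to 0.01, the latter without vehicle replicate 2. Without that library the median was 0.057 after TPM, with a lowest adjusted p of 0.0957 (limma). The sign of 10 of 25 named tested members turned when vehicle replicate 2 was left out. Among sign changes with a 95% interval that excluded 0, Rpl22 had -0.16 to 0.14 with 1 library left out, the latter without vehicle replicate 2, and also without it 0.13 with the members' mean subtracted, 0.14 with the trend removed and 0.19 after TPM, where Rps27l had 0.12 and Rps29 0.11.

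The replicate numbers gave correlations of 0.09, 0.13 and 0.10 between same-numbered samples, and each C13 library correlated best with its own number. The labels do not say that a number marks a shared culture. With the replicate block limma called 0 genes higher and 0 lower, the median of the members was -0.204 and their lowest adjusted p was 0.695.

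Depth limits the members with few fragments, Rpl39l and Rps27 most, and no counting interval is given because counts were not recovered from FPKM. Rows that share a locus cannot be separated from the table.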
